A study of Drosophila melanogaster with 3 samples.

Results

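Dichaete (gene symbol D) is a transcription factor of the SoxB class, and the summits described here are its binding maxima at promoters outside divergent gene pairs. Of the 5047 summits in the authors' reproducible list, 1179 were members, which is 23.4% (exact 95% binomial interval, 22.2 to 24.6%). A summit was a member when it lay within 500 bp of a start site of a protein-coding transcript and not at a divergent pair. A divergent pair is a minus-strand and a plus-strand gene that point away from each other, with starts at most 1000 bp apart and both within 500 bp of the summit. Such pairs held 575 summits, and the other 3293 summits lay over 500 bp from any start. The rule used position only, and no measured value entered it.

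The data are chromatin immunoprecipitation with sequencing (ChIP-seq) of whole Drosophila melanogaster embryos of mixed sex, aged 0 to 14 hours, in 1 group of 3 biological replicates. The line, labelled D-GFP, stably expresses D fused at its C terminus to green fluorescent protein, and the precipitation is described as using an anti-GFP antibody, on chromatin sheared by sonication. The antibody field of the labels names D instead, and the description was followed here. There was no second condition, the promoter that drives the fusion is not given in the sources used here, and embryos of this age span hold many cell types and stages, so a summit can come from any of them. The reproducible list holds the peaks kept by a threshold that the authors set on the irreproducible discovery rate (IDR). Each peak carries a signal value, the height that the authors gave it on an unstated scale, and read depth is unknown.

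Sox proteins bind DNA through an HMG domain, which sits in the minor groove at a short core word and bends the helix. In the fly embryo D acts in segmentation, in the neuroectoderm and neuroblasts, at the ventral midline and in the hindgut. Fly promoters differ in their core elements. Housekeeping genes often carry the DNA replication-related element (DRE), read by DREF and overlapping the word of the insulator protein BEAF-32, or motif 1, read by M1BP, whereas genes of development more often carry GAGA words, read by Trithorax-like, with an initiator and a downstream promoter element (DPE).

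Sequences of 61 bp centred on single summits show what lay under the members. They are printed on the strand of the nearest gene, 5′ to 3′, from Release 6 of the genome (dm6). Capitals mark a Sox core word (ATTGT or its complement), a DRE (TATCGATA), a TATA word (TATAAA) or a GAGA word (GAGAG or its complement). The first 4 are the highest members among candidate windows, which overlap no annotated exon and leave out a whole chromosome arm. Its members px, CG1888 and Tina-1, which ranked 2, 5 and 6 by signal value, were therefore not candidates. The last 2 are the highest such members with a DRE and with a GAGA word. Of the 756 candidate windows, 138 held a Sox core word, 129 a TATA word, 57 a GAGA word, 4 a DRE and 0 the motif 1 word.
Ugalt: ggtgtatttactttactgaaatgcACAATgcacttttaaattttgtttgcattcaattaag
CG14100: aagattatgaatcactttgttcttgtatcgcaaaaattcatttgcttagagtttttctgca
ph-p: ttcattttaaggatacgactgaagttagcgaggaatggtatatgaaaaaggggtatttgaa
CG18549: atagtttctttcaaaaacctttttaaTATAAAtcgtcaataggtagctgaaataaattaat
eEF1gamma: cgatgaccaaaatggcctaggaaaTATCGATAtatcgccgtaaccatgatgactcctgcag
bbx: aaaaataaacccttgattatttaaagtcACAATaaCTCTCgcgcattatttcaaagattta
The window of Ugalt, a gene for a transporter of UDP-galactose, is chrX:2703860-2703920, minus strand, with the summit 38 bp upstream of the start. The window of CG14100 is chr3L:19590588-19590648, minus strand, 94 bp upstream. The window of ph-p, a subunit of Polycomb repressive complex 1, is chrX:2137285-2137345, minus strand, 460 bp upstream. The windows of CG14100 and ph-p held none of the marked words. The window of CG18549 is chr3R:12449128-12449188, plus strand, 138 bp upstream of the start. The window of eEF1gamma, a translation elongation factor subunit, is chr3R:29220107-29220167, plus strand, 35 bp upstream. The window of bbx, which encodes an HMG-box protein, is chrX:21367777-21367837, plus strand, 232 bp upstream.

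The replicates were unequal, and replicate 1 stood apart. A summit was called recovered in a replicate when one of that replicate's own 5047 highest summits lay within 200 bp. Among all IDR summits, 50% were recovered in replicate 1, 85.2% in replicate 2, 83.9% in replicate 3 and 38.5% in all 3. Of the members, 511 (43.3%) were recovered in replicate 1, 1057 (89.7%) in replicate 2, 1026 (87.0%) in replicate 3 and 432 (36.6%) in all 3. A further 520 members (44.1%) were recovered in both of the other replicates while replicate 1 missed them, against 36.5% of all IDR summits. That share was 47.8% of divergent summits and 31.7% of summits away from starts. In the whole list of 30000 regions, 550 members (46.6%) had a region of replicate 1 within 200 bp, against 1159 (98.3%) for replicate 2 and 1158 (98.2%) for replicate 3. Where members had a region in a pair of replicates, their ranks ran together, with a Spearman rho of 0.82 over 536 members for replicates 1 and 2, 0.81 over 532 for replicates 1 and 3 and 0.86 over 1148 for replicates 2 and 3. These are descriptions across summits, all of which passed the IDR threshold. Results without a replicate keep the IDR summits recovered in both of the other replicates. Those without replicate 2 or without replicate 3 thus require recovery in replicate 1. Counts that move by over 1.5 times without a replicate are given beside the result or with the other alternatives.

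Members lay upstream of the start. Of 1178 members that were not exactly at a start, 966 were upstream and 212 downstream, so that 82.0% were upstream (exact interval, 79.7 to 84.2%; two-sided exact binomial p = 2.59e-115). One further member lay on the start itself. Upstream members had a median distance of 213 bp, with quartiles of 132 and 316 bp, and downstream members a median of 192 bp. The fullest bin of 50 bp ran 200 to 150 bp upstream and held 146 members, and 524 members (44.4%) lay 100 to 300 bp upstream. Within 50 bp of the start lay 119 members (10.1%), about the share that an even spread over 500 bp to each side would give. The nearest start is not certain where a gene has several, but the 980 members with 1 start position in reach gave 83.2% upstream, 815 against 165. Each replicate's own 5047 highest summits, put through the same rule, gave 83.7% upstream in replicate 1, 76.7% in replicate 2 and 74.3% in replicate 3 (mean 78.2 ± 4.92% SD, n = 3). Among members kept without replicate 1, that is by recovery in the other replicates, 83.4% were upstream, and the share was 91.1% without replicate 2 and 90.3% without replicate 3. Among the 463 summits 501 to 1000 bp from a start, 51.4% were upstream, near an even split. At the limit itself, the 66 members in the last 50 bp inside it had a median signal value of 423, and the 72 summits in the first 50 bp beyond it a median of 326.

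**Figure D1:**
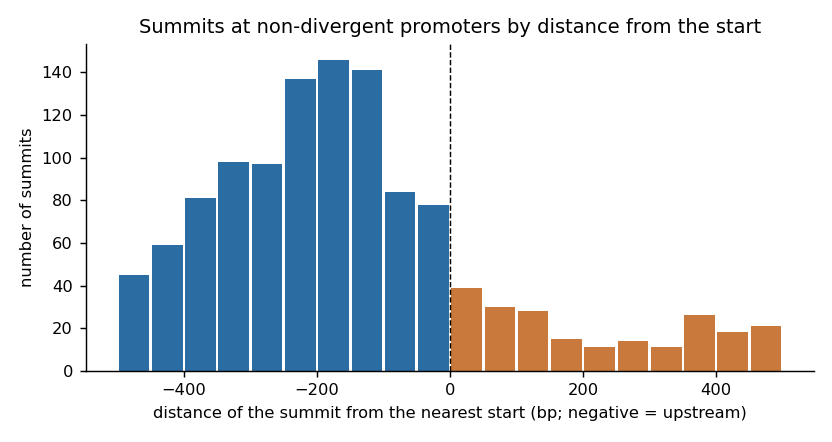
Number of summits at non-divergent promoters (vertical axis) in bins of 50 bp by distance from the nearest protein-coding start (horizontal axis, bp, negative values upstream in the direction of the gene). The bars upstream of the dashed start line hold 966 of the members, and the fullest, 200 to 150 bp upstream, holds 146.

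Upstream members were also higher and better recovered in replicate 1. The median signal value was 377 upstream and 277 downstream, and 580 of 966 upstream members against 86 of 212 downstream members lay above the IDR median of 310 (odds ratio 2.20, interval 1.61 to 3.02; Fisher's exact test, p = 5.25e-07 after Benjamini-Hochberg adjustment over 4 features). Recovery in replicate 1 was 47.9% upstream and 22.6% downstream (odds ratio 3.14, adjusted exact p = 2.25e-11). Recovery in replicate 2 was 90.6% upstream and 85.4% downstream (adjusted exact p = 0.0447). Recovery in replicate 3 was 87.4% upstream and 85.4% downstream and did not pass (odds ratio 1.18, interval 0.75 to 1.84, adjusted exact p = 0.431).

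Members on the start or downstream of it had lower signal values than members more than 100 bp upstream, and fewer were recovered in replicate 1. This is given in bands without a test, because the bands were chosen after their values were seen. Among 283 members more than 300 bp upstream, 56.2% were recovered in replicate 1 and the median signal value was 403. Among 521 members more than 100 and up to 300 bp upstream, 50.1% were recovered in replicate 1 and the median signal value was 393. Among the 119 members within 50 bp of the start, 16.8% were recovered in replicate 1, 93.3% in replicate 2 and 84.9% in replicate 3, with a median signal value of 274. The same band was richer in G and C, with a median of 44.3% against 33.8% in the band more than 300 bp upstream. A DRE stood in 13.4% of windows on the start and in 1.06% of those more than 300 bp upstream, and a TATA word in 14.3% and 36.4% of these windows. The Sox core word stood in 46.2% and 56.2% of these windows.

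Members were higher than summits away from starts, and their difference in height from divergent promoters did not pass the test. Member signal values ran from 188 to 4534, with a median of 348 and quartiles of 246 and 614. The median was 338 at divergent promoters and 296 over 500 bp from a start. Above the IDR median lay 56.6% of members, 56.3% of divergent summits (odds ratio 1.01, interval 0.82 to 1.24, adjusted exact p = 0.994) and 46.5% of summits away from starts (odds ratio 1.5, interval 1.31 to 1.72, adjusted exact p = 1.72e-08). These are Fisher's exact tests, adjusted by Benjamini-Hochberg over 46 comparisons, and they take summits as the units, not the replicates. With a limit of 250 bp in place of 500 bp, the odds ratio against summits away from starts was 1.13 and no longer passed, and members were lower than divergent summits, with an odds ratio of 0.61.

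Recovery in replicate 1 was higher in members than at divergent promoters and lower than away from starts. It was 43.3% of members and 28.5% of divergent summits (odds ratio 1.92, adjusted exact p = 9.61e-09), and 56.1% of summits away from starts (odds ratio 0.60, adjusted exact p = 1.18e-12). In replicate 2 it was 89.7% of members, against 84.7% of divergent summits (odds ratio 1.57, adjusted exact p = 0.0084) and 83.7% of summits away from starts (odds ratio 1.68, adjusted exact p = 1.74e-06). With the whole list of replicate 2, the odds ratio against divergent summits turned to 0.41. In replicate 3 recovery was 87.0% of members, against 77.2% of divergent summits (odds ratio 1.98, adjusted exact p = 1.65e-06) and 84.0% of summits away from starts (odds ratio 1.28, adjusted exact p = 0.0279). Recovery in all 3 was 36.6% of members, 21.9% of divergent summits (odds ratio 2.06, adjusted exact p = 2.25e-09) and 42.0% of summits away from starts (odds ratio 0.80, adjusted exact p = 0.00335). In the highest quartile of the IDR list, replicate 1 recovered 66.2% of 393 members, 50.9% of 171 divergent summits and 68.8% of 698 summits away from starts. All 4 differences from divergent promoters lost their call at a limit of 250 bp, with odds ratios of 1.12, 1.07, 1.25 and 1.21 for replicates 1, 2, 3 and all 3. The difference from summits away from starts in replicate 3 turned to 0.88 at 250 bp and to 0.54 among the upper 50% of peaks, and that in replicate 2 to 0.92 among the upper 50%.

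**Figure D2:**
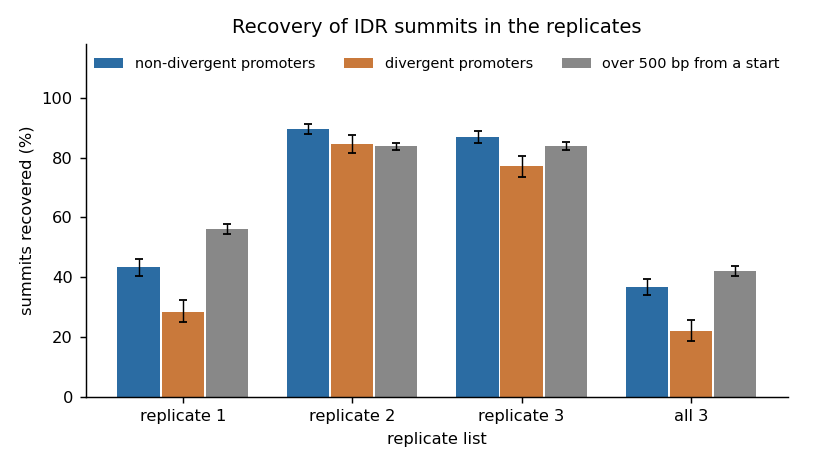
Percent of IDR summits recovered (vertical axis) in each replicate's own 5047 highest summits and in all 3 (horizontal axis), for non-divergent promoters (n = 1179), divergent promoters (n = 575) and summits over 500 bp from a start (n = 3293). Error bars are exact 95% binomial intervals, which cover counting error over summits only; in replicate 1 the members stand at 43.3%, between 28.5% and 56.1%.

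Among the 20 highest members were several of the highest summits of the whole list, and 8 of the 20 highest IDR summits were members. Of these 20, 19 lay upstream of the start, 20 were recovered in replicates 2 and 3, and 16 in replicate 1. Ugalt had signal values of 1209, 1586 and 1741 in replicates 1, 2 and 3, ranking 1, 1 and 2 in the replicates' own lists. px (plexus), which acts in wing vein patterning, had 1009, 1571 and 1810 and lay 200 bp upstream on 2R. CG14100 had 1199, 1273 and 1268. These summits were among the 6 highest in every replicate. ph-p had 945, 953 and 1029. CG1888 had 645, 971 and 1084, and Tina-1 had 529, 972 and 1119. The replicates' lists differ in their medians over all regions, which were 28.2, 35.0 and 43.2, so no value is compared here between lists. PNPase, a mitochondrial exoribonuclease, had 653, 951 and 983 and was the downstream case among the 20, at 78 bp. CG18549 had 581, 911 and 980, CG13921 had 626, 858 and 932, and Fkbp14, a peptidyl-prolyl isomerase, had 452, 902 and 1007. These first 10 were recovered in all 3 replicates and are therefore also the highest of that kind.

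The remaining 10 of the 20 had pooled signal values from 2363 at mRpL41, a mitochondrial ribosomal protein gene, to 1871 at MFS18, a transporter gene. mRpL41 had 760, 809 and 799 in replicates 1, 2 and 3. CG31145, brwl, E23 (an ABC transporter gene), msi (Musashi, an RNA-binding protein of neural and sensory precursors) and cu (curled) had a region in every replicate. Sox14, CG1635, gish (a casein kinase gamma) and MFS18 had none within 200 bp in replicate 1. Sox14, a SoxC gene, had 763 in replicate 2 and 796 in replicate 3. CG1635 had 763 and 833, gish had 695 and 805, and MFS18 had 601 and 752 in the same replicates. These 4 summits ranked 37 to 86 in replicate 2 and 40 to 56 in replicate 3, so they were strong in both and unlisted in replicate 1.

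**Figure D3:**
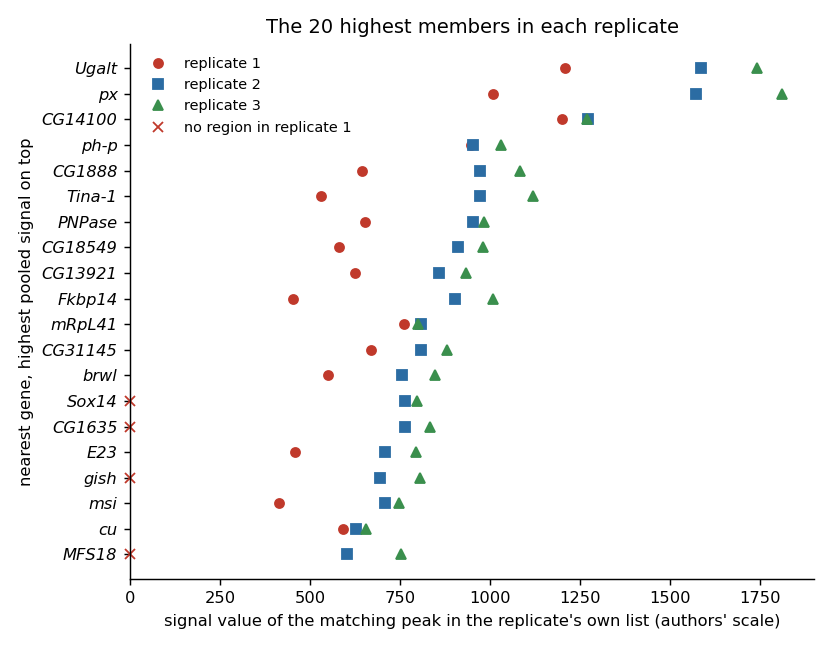
Signal value of the matching peak in each replicate's own list (horizontal axis, the authors' scale) for the 20 members of highest pooled signal (vertical axis, nearest gene, highest on top). Circles are replicate 1, squares replicate 2 and triangles replicate 3; crosses at the left edge mark Sox14, CG1635, gish and MFS18, which had no region of replicate 1 within 200 bp.

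Around their summits the members were poor in G and C. The window of 100 bp to each side of the summit had a median GC content of 34.8%, with quartiles of 30.3 and 41.3%, against 41.3% in the window 1000 bp upstream and 42.8% in that 1000 bp downstream in the direction of the gene. Divergent summits had a median of 31.8% and summits away from starts 34.8%. Base composition alone moves the frequency of a word, and its part in the counts below was not tested.

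The Sox core word did not pass the test of summits against both flanks. It stood in 588 of 1179 summit windows (49.9%), in 46.6% of upstream flanks and in 42.6% of downstream flanks (exact McNemar test, the larger p of the flanks, adjusted over 16 words, 0.185). It did pass with windows of 50 bp to each side, at 1.22 times the share of the upstream flank, and with flanks at 2000 bp, at 1.19 times, against 1.07 times with the main windows and flanks. The longer words CATTGT and ATTGTT did not pass either, with 11.3% of summits against 12.1 and 13.1% of upstream and downstream flanks for CATTGT, and 23.2% against 19.5 and 18.2% for ATTGTT (adjusted exact p = 0.614 and 0.0698). Counted by position, there were 19.9 core words per 100 members in the 50 bp just downstream of the summit, 18.6 in the 50 bp just upstream, 15.4 to 17.98 between 500 and 400 bp upstream and at most 12.5 between 200 and 400 bp downstream. The profile was thus shallow. The core word did not pass in members against divergent summits (49.9 against 53.9%, odds ratio 0.85, interval 0.69 to 1.04, adjusted exact p = 0.156) or against summits away from starts (52.6%, odds ratio 0.90, interval 0.78 to 1.03, adjusted exact p = 0.154), although the comparison with summits away from starts did pass in the upper 50% of peaks (odds ratio 0.79). CATTGT was less frequent in members than in summits away from starts, 11.3 against 14.2% (odds ratio 0.77, adjusted exact p = 0.0233).

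In summit windows against both flanks, 6 of the 16 words were more frequent and 1 less. A DRE stood in 2.80% of summits and in 0.85% of upstream and 0.51% of downstream flanks (adjusted exact p = 0.000941). Motif 7, one of the core promoter words of fly genes, stood in 12.5% against 6.19 and 6.36% (adjusted exact p = 3.21e-06), and motif 6 in 7.29% against 4.58 and 3.48% (adjusted exact p = 0.0158). TATAAA on either strand stood in 35.4% against 22.9 and 20.5% (adjusted exact p = 8.09e-10). A run of 6 A stood in 43.2% against 33.1 and 30.7% (adjusted exact p = 3.21e-06), and the TCT initiator word in 30.1% against 24.3 and 25.5% (adjusted exact p = 0.0315). The word less frequent was GCCAT, the core of the site of the Polycomb-recruiting factor Pho, with 24.2% against 32.7 and 35.5% (adjusted exact p = 1.75e-05). Several of the more frequent words are rich in A and T, as the summit windows were. Without replicate 2 or without replicate 3, the DRE and motif 7 no longer passed, with shares 5 and 3 times that of the upstream flank for the DRE and 2.11 and 2.32 times for motif 7, over fewer summits. The DRE also did not pass with a limit of 1000 bp (1.67 times) or in the upper 50% of peaks (2.5 times), and neither word passed among summits recovered in all 3 (5 times for the DRE and 2.29 times for motif 7).

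Against divergent promoters, members carried fewer housekeeping words and more GAGA words. By the rule a divergent summit has starts of both genes of a pair within 500 bp, while 980 of 1179 members had 1 start position there. Neither the number of starts nor the distance to them was matched, and their part was not tested. A DRE stood in 2.80% of members and 9.04% of divergent summits (odds ratio 0.29, interval 0.18 to 0.46, adjusted exact p = 1.94e-07). Motif 1 stood in 0.93 and 3.30% (adjusted exact p = 0.00167), motif 7 in 12.5 and 24.2% (odds ratio 0.45, adjusted exact p = 9.61e-09) and motif 6 in 7.29 and 11.1% (adjusted exact p = 0.0181). TATAAA stood in 35.4% of members and 47.1% of divergent summits (odds ratio 0.61, adjusted exact p = 8.79e-06), a call lost among summits recovered in all 3 replicates (0.59), and 44.9% of members and 63.3% of divergent summits had a GC content below the IDR median (adjusted exact p = 6.13e-12). GAGAG stood in 26.6% of members and 13.4% of divergent summits (odds ratio 2.35, interval 1.78 to 3.13, adjusted exact p = 1.45e-09). The GAGA difference kept its call without each replicate in turn and was lost among summits recovered in all 3 (odds ratio 1.81). The DRE difference was lost at a limit of 250 bp (odds ratio 0.60), without replicate 2 (0.24), without replicate 3 (0.26) and among summits recovered in all 3 (0.23), where fewer summits were tested.

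Against summits away from starts, 8 words passed, 6 of them more frequent in members and 2 less. The DRE stood in 33 members (2.80%) and 8 of the 3293 other summits (0.24%), an odds ratio of 11.8 (interval 5.33 to 29.7, adjusted exact p = 6.13e-12). Motif 1 stood in 0.93% of members and 0.12% of the others (adjusted exact p = 0.000579), motif 7 in 12.5 and 5.10% (odds ratio 2.65, adjusted exact p = 4.14e-14) and the E-box CAGCTG in 8.65 and 5.95% (adjusted exact p = 0.00517). The DPE word stood in 7.38 and 5.50% (adjusted exact p = 0.0406). The initiator word was less frequent in members, with 40.3 against 44.2% (odds ratio 0.85, adjusted exact p = 0.0406), as was CATTGT. Motif 6 (7.29 and 7.11%, adjusted exact p = 0.946) and TATAAA (35.4 and 36.4%, adjusted exact p = 0.682) did not pass. The DRE odds ratio was 4.26 without replicate 2, 4.06 without replicate 3 and 4.04 among summits recovered in all 3, and did not pass there. GAGAG differed little, with 26.6% of members and 23.4% of the others (odds ratio 1.19, adjusted exact p = 0.0471), a call lost or turned under 8 alternatives.

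**Figure D4:**
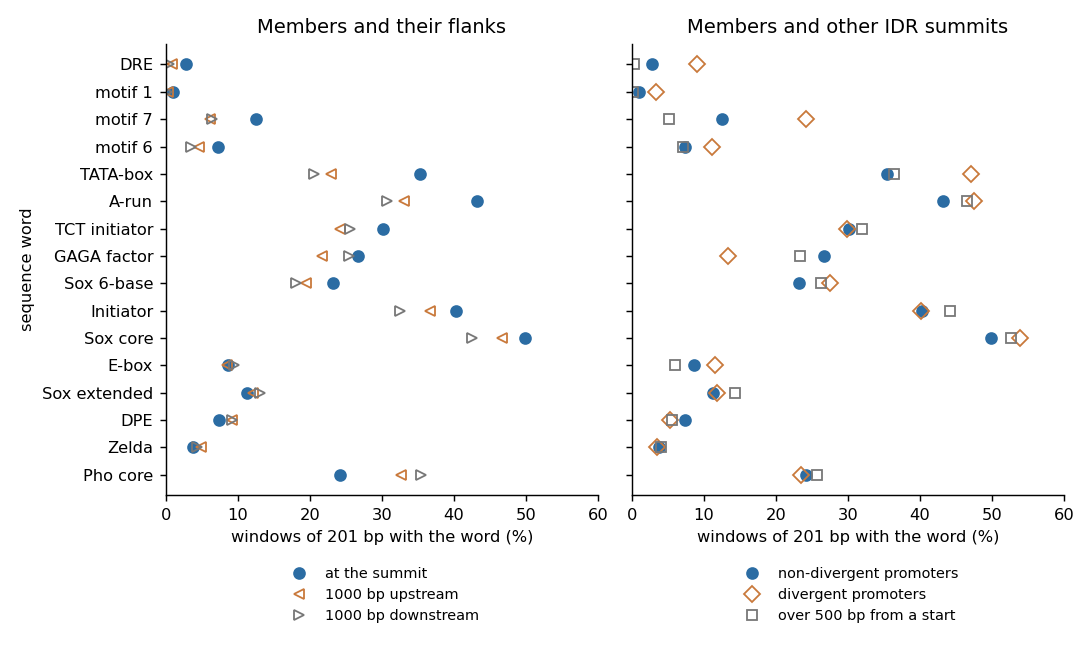
Percent of windows of 100 bp to each side with each of 16 sequence words (horizontal axes): at the left the members' summits and their flanks 1000 bp upstream and downstream, at the right the members, the divergent summits and the summits over 500 bp from a start. The DRE stands in 2.80% of members, 9.04% of divergent summits and 0.24% of the others, while the Sox core lies near 50% in all classes.

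GAGA words were fewer right at the summits of members than 150 to 200 bp to either side. In the direction of the gene, 142 GAGA words of the 1179 members lay 0 to 50 bp downstream of the summit and 370 lay 150 to 200 bp downstream. On the other side, 159 lay 0 to 50 bp upstream and 314 lay 150 to 200 bp upstream. Overlapping words within 1 repeat each counted. In the promoters themselves, from 250 bp before to 50 bp after the start, a GAGA word stood in 50.6% of 1113 member starts and in 33.2% of all 19607 protein-coding starts. The Sox core stood in 54.4 and 59.5% of the same windows, and the DRE in 5.12 and 7.99%. On the strand of the gene, an initiator word from 5 bp before to 5 bp after the start was found at 16.3% of member starts and 10.6% of all starts. A DPE word 20 to 40 bp after it was found at 5.39 and 2.51%, and a TATA word 40 to 15 bp before it at 3.68 and 6.80%. Starts of 1 gene can lie close together and share sequence, so these shares are given with no test.

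Members recovered in all 3 replicates differed in composition from those in replicates 2 and 3 only. Their median signal value was 575 against 323, 91.2% against 76.9% lay upstream, and their median GC content was 32.8% against 36.8%. Of 16 words compared, TATAAA passed, with 42.6% of the 432 and 30% of the 520 (Fisher's exact test, odds ratio 1.73, adjusted exact p = 0.00194). The DRE stood in 1.16 and 4.04% of them (adjusted exact p = 0.0594) and the Sox core in 49.3 and 47.9% (adjusted exact p = 0.795).

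The members touched 1056 of 13945 protein-coding genes, or 7.57%, counted as genes with a start within 500 bp of a member. For 1145 members this was 1 gene. In turn, 915 genes had 1 member, 128 had 2 and 13 had 3 or more, led by Ptpmeg2 and Rtnl1 with 5 each and dnc, a cAMP phosphodiesterase gene, with 4. Genes with a member were long, with a median of 6514 bp against 2166 bp over all genes, and 60.3% had several start positions against 26.5% of all. Long genes with many starts offer more places for a member, and this was not corrected for. At genes whose starts spread over more than 500 bp, 244 of 630 members (38.7%) lay at the most 5′ start and 386 at an internal one. Of all start positions of such genes, 41% lay within 500 bp of the most 5′ start. Of all members, 585 members (49.6%) lay within the body of their own gene, 72 (6.11%) in another gene and 522 (44.3%) in no protein-coding gene, and 216 (18.3%) lay in an annotated exon. A start of a non-coding RNA gene was within 500 bp of 78 members (6.62%). The arms held 227 members on X, 230 on 2L, 216 on 2R, 233 on 3L, 264 on 3R and 9 on 4. Another IDR summit stood within 5 kb of 54.2% of members, 44.7% of divergent summits (adjusted exact p = 0.000582) and 62.3% of summits away from starts (adjusted exact p = 5.02e-06).

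Of the 30 lists, cytoplasmic ribosomal proteins had the most genes with a member by count, and their summits sat on the start. By share, Sox genes (50%) and Notch pathway and E(spl) complex genes (38.1%) stood higher. A member was found at 32 of 93 ribosomal protein genes (34.4%), set beside 7.57% of all genes, and a divergent summit at 33. In all 32 the member was at most 100 bp from a start of that gene, at a median of 21 bp, whereas 211 of the 1056 genes with a member had it that close and their median was 206 bp. RpL23A had signal values of 278 and 262 in replicates 2 and 3, RpS10b 285 and 309 and RpL22 246 and 213, with no region in replicate 1. RpL24 had 145, 224 and 295 in replicates 1, 2 and 3. Of the 33 members at these genes, 6 (18.2%) were recovered in replicate 1, where 50% of IDR summits were, against 31 in replicate 2 and 30 in replicate 3. Their windows had a median GC content of 44.3%, 7 (21.2%) held the Sox core word where 49.9% of members did, and 8 held a DRE. Pooled signal values were 207 to 883 with a median of 357. The count was 47 with a limit of 250 bp and 20 with a limit of 1000 bp, and the limit also sets which summits count as divergent. Without replicate 2, 5 genes of the list were left, without replicate 3, 6, and without replicate 1, 29.

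Other genes of protein synthesis and cell upkeep were less even. Translation factors had members at 10 of 54 genes (18.5%), at a median of 45.5 bp from the start. eIF6 led them with 304, 375 and 381 in replicates 1, 2 and 3. eEF1gamma, whose DRE is printed above, had 371 in replicate 2 and 378 in replicate 3 and no region in replicate 1. eIF3c and eEF1alpha1 were lower, with pooled values of 341 and 335. Without replicate 2 or 3 this list had 1 gene. Heat shock and CCT chaperone genes had members at 5 of 33, led by Hsp27 with 433, 560 and 595 and Hsp83 with 217, 363 and 530. Hsp22 and Hsp26 had pooled values of 400 and 315. Tubulin and actin genes had members at 4 of 17, of which Act5C had 240, 145 and 197. Mitochondrial ribosomal protein genes had a member at 1 of 73, against divergent summits at 18, and splicing factors at 1 of 43 (B52) against 10. Oxidative phosphorylation subunits had members at 0 of 87, against divergent summits at 10, proteasome subunits at 0 of 48 against 4, and nucleoporins at 0 of 22 against 3. The oxidative phosphorylation list had 4 genes with a limit of 1000 bp and 3 with the most 5′ start of each gene. Over all genes, 1056 had a member and 1117 (8.01%) a divergent summit. General transcription and Mediator genes had members at 5 of 63 (7.94%, near the share of all genes), led by Taf4 at 349, and divergent summits at 15. Rab GTPase genes had 2 of 28 (Rab5 and Rab1), aminoacyl-tRNA synthetases 1 of 33 (AlaRS), vacuolar ATPase subunits 1 of 33 (Vha16-1) and cell cycle regulators 3 of 46 (Dp, E2f1 and CycT). Without replicate 2 the general transcription, Rab, cell cycle, splicing, synthetase and vacuolar ATPase lists were all at 0, and so they were without replicate 3. Both settings require recovery in replicate 1. Without replicate 2, as without replicate 3, 2 chaperone genes were left, and without replicate 2, 2 tubulin and actin genes. Without replicate 1 the synthetase and vacuolar ATPase lists were also at 0.

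The Sox, neuroblast, Notch and midline lists had members at median distances of 233 to 291 bp, beside 206 bp over all genes with a member. Such distances were not particular to these lists. The median was 274.5 bp for muscle genes, 320 bp for cytochrome P450 genes and 422.5 bp for tubulin and actin genes, but 189 bp for hindgut and gut regulators. Of the 8 Sox genes, 4 had a member, at a median of 277 bp. D itself had a member 180 bp from its start with 739 and 912 in replicates 2 and 3 and no region in replicate 1. Sox102F had 193, 229 and 198 and Sox100B 104, 151 and 186. Neuroblast and proneural factors had members at 7 of 30 genes (23.3%) and no divergent summit, at a median of 289 bp. elav, the pan-neuronal RNA-binding protein gene, had 667 and 708 in replicates 2 and 3 and no region in replicate 1. numb, a cell fate determinant in asymmetric division, had 399, 645 and 659. insc, which orients the neuroblast spindle, had 219 and 267 in replicates 2 and 3, and grh, a late temporal factor, had a pooled value of 328.

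Notch pathway and E(spl) complex genes had members at 8 of 21 (38.1%), at a median of 291 bp. The repressor gene E(spl)m7-HLH had 237, 590 and 659 in replicates 1, 2 and 3 and E(spl)m3-HLH had 363, 504 and 582. The co-repressor gene gro had 324 and 430 in replicates 2 and 3 with no region in replicate 1, and neur, a ubiquitin ligase of Delta, had 218 and 232. Midline and axon guidance genes had members at 6 of 20 (30%), at a median of 233 bp. aos, a secreted inhibitor of the EGF receptor, had 234, 458 and 508, and unc-5, a Netrin receptor, had 211, 332 and 452. spi, an EGF receptor ligand, had 259 and 303 in replicates 2 and 3, and trh, a bHLH-PAS regulator of the trachea, had 167, 231 and 249 in replicates 1, 2 and 3. Of these 4 lists, 2, 2, 2 and 3 genes had a member recovered in all 3 replicates, for Sox, neuroblast, Notch and midline genes in that order. The counts were the same without replicate 2 and without replicate 3. With a limit of 250 bp the lists held 2, 4, 4 and 3 genes in the same order, and with the most 5′ start of each gene the Sox list held 2 and the midline list 2. These counts are small, the lists were chosen with earlier results known, and no test was made.

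Hindgut and gut regulators had members at 3 of 13 genes. fkh, a forkhead factor of the gut, had 39.2, 523 and 610 in replicates 1, 2 and 3, bowl had 140, 339 and 362, and cad had a pooled value of 199. Polycomb and Trithorax group genes had members at 5 of 33, with ph-p, ph-d, Psc and Trl among them at pooled values of 2829, 291, 525 and 584. Early patterning factors had 5 of 40 (12.5%), all low, with tsh at 260, bcd at 257 and Dfd and oc at 208 each. Insulator protein genes had 3 of 27, lola at 658, BEAF-32 at 254 and CTCF at 190, and muscle genes had 2 of 20, tin at 663 and Tm1 at 591. Cytochrome P450 genes had 3 of 83 (3.61%), led by Cyp6u1, whose member lay nearer to the start of Ufsp1, and followed by Cyp310a1 and Cyp317a1. Without replicate 2, as without replicate 3, the Polycomb and Trithorax, the early patterning and the P450 lists had 1 gene each and the insulator and muscle lists 0, and without replicate 1 the insulator list had 1. Neuronal terminal genes had 0 of 20. Families used mostly late in development, in adult sense organs, in gametes or in the gut had none: 0 of 179 odorant, gustatory and ionotropic receptor genes, 0 of 120 cuticle protein genes, 0 of 45 accessory gland and seminal protein genes, 0 of 26 Jonah proteases and trypsins and 0 of 14 chorion and vitelline protein genes. The share over all genes was 7.57%, at which lists as short as the last ones and the neuronal list would hold few genes with a member. No test was made. A divergent summit stood at 1 accessory gland and seminal protein gene. With a limit of 1000 bp, cuticle protein genes had 4, the receptor genes 1 and neuronal terminal genes 2, and the other families named here stayed at 0.

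**Figure D5:**
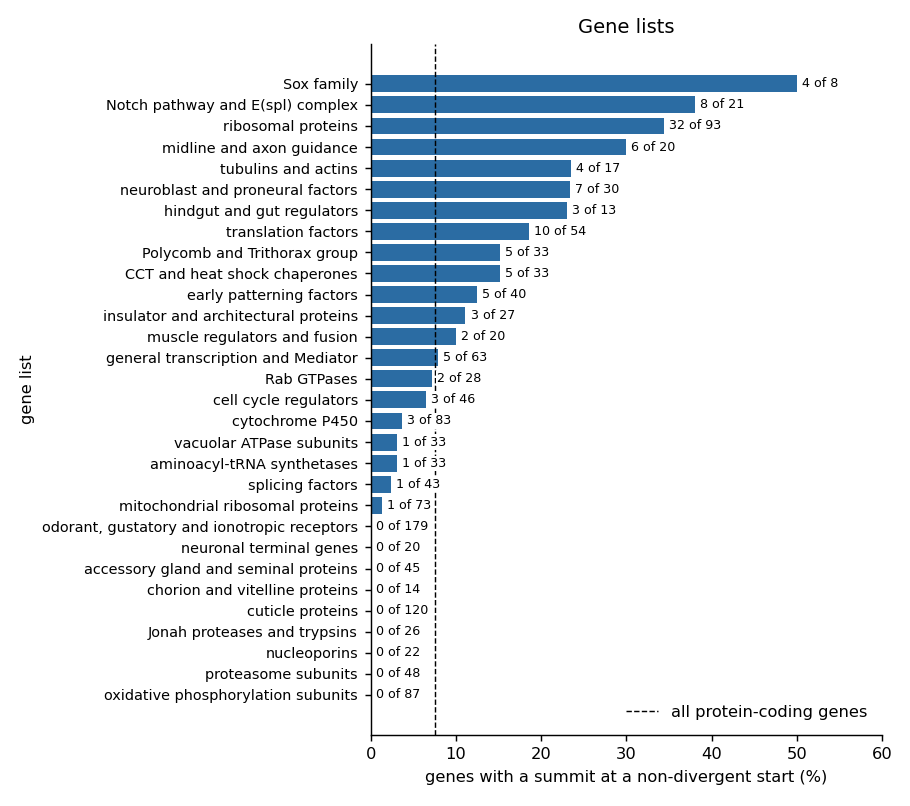
Percent of the genes of each of 30 lists that had a summit at a non-divergent start (horizontal axis), with the number of genes beside each bar and the dashed line at 7.57%, the share of all protein-coding genes. Sox genes reach 4 of 8, Notch pathway and E(spl) genes 8 of 21 and ribosomal protein genes 32 of 93, and 9 lists are at 0.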

How the data were processed

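Anti-GFP ChIP-seq of D-GFP embryos was analysed from peak lists on the dm6 build. Per the deposited file lists, the authors called regions on each replicate and on the 3 together against a control alignment and made the IDR-thresholded list from these. No source used here gives the aligner, the caller or the IDR cut-off. The deposited signal value (column 7) is the authors' peak height, on an unstated scale, and was used to rank and describe peaks within a list. The dm3 lists were not used.

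Starts were those of 19607 positions of 13945 protein-coding genes (Ensembl release 115), and sequence was RefSeq's Release 6. A replicate's own 5047 highest summits served for recovery. Words were searched within 100 bp of the summit, on both strands except for the initiator, DPE and TCT words. Motif 6 and motif 7 each joined several spellings. Tests were exact (binomial, Fisher, McNemar), two-sided, with Benjamini-Hochberg adjustment over 46 feature comparisons or 16 words, and called at 0.05. Their p-values take summits as units, so they say nothing of replicate spread. The comparison of upstream with downstream members and that of replicate patterns (adjusted over 32 tests) were added after the data were seen. Depth is unknown and nothing was corrected for it. Members and gene lists were chosen with earlier results of these data known. Older symbols were matched to current ones for 7 list genes. Genes named are those nearest to the 20 highest members, the 10 highest members recovered in all 3 replicates and up to 4 genes per list with the highest member; the genes with most members, list genes where 5 or fewer were bound and bbx, shown by the sequence rule, are named beside these. The class rule was tested on a small made-up annotation. The word and feature tests were tried on these same summits, with differences set by hand or windows shuffled. The word search and the replicate matching were not tested in this way. Python 3.11.15, numpy 2.4.6, pandas 2.3.3, scipy 1.17.1 and matplotlib 3.10.9 were used.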

Additional observations from a re-analysis of the deposited data

Results flagged for a closer look

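Each replicate's own 5047 highest summits held promoter summits that the reproducible list lacks, and these lay outside the comparisons above. Of all 5047 such summits, 49.8% in replicate 1, 14.1% in replicate 2 and 14.9% in replicate 3 had no IDR summit within 200 bp. In replicate 1, 225 of 737 summits at non-divergent promoters had none (30.5%). In replicate 2 the number was 229 of 1316 (17.4%), and in replicate 3 it was 257 of 1310 (19.6%). The share was below that of the whole list in replicate 1 and above it in replicates 2 and 3, and the difference was not tested.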

How the results depend on the processing

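Of 151 recomputed main values, 111 kept their direction and side of the threshold, or stayed within the tolerance for a count or share. The upstream share passed under every alternative run, at 74.2 to 91.2%. The cause of the changes below was not tested, beyond fewer summits entering under the stricter lists. The share of members, 23.4%, was 18.2% at 250 bp, 30.1% at 1000 bp, 26.4% in the upper 50% of peaks, 16.7% with the most 5′ start of each gene, and 21.4 to 25.2% when a replicate was left out. Genes with a member, 7.57%, were 4.47% in the upper 50% of peaks, 2.87% among summits recovered in all 3 replicates and 2.97 to 6.22% when a replicate was left out. Odds ratios of height at 250 bp were 0.61 against divergent promoters and 1.13 against summits away from starts. Recovery against divergent promoters at 250 bp gave 1.12 (replicate 1), 1.07 (replicate 2), 1.25 (replicate 3) and 1.21 (all 3), none past the threshold. In the upper 50% of peaks it gave 1.55 (replicate 2) and 1.92 (replicate 3), in the whole lists 0.41 (replicate 2) and 1.18 (replicate 3), and when that replicate did not choose the summits 1.44 (replicate 2) and 1.87 (replicate 3). Against summits away from starts, replicate 2 gave 0.92 in the upper 50% and 1.09 in the whole list, and replicate 3 gave 0.88 at 250 bp, 1.19 at 1000 bp, 0.54 in the upper 50%, 1.04 with the most 5′ start and 1.29 in the whole list. Words that differed from divergent promoters, 6, were 1 among summits recovered in all 3 and 4 to 7 when a replicate was left out. Those that differed from summits away from starts, 8, were 4 in the upper 50%, 5 with the most 5′ start, 2 among summits recovered in all 3, 4 with windows of 50 bp to each side and 2 to 4 when a replicate was left out. Words more frequent than in both flanks, 6, were 2 to 6 when a replicate was left out, and the less frequent word, 1, fell to 0 in the upper 50%. The GAGA odds ratio against summits away from starts turned to 0.88 at 250 bp, 0.99 in the upper 50% and 0.96 with the most 5′ start. No paired analysis was possible because there is 1 group. Unknown depth limits all comparisons between replicates.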
